A study of Mus musculus with 12 samples.

Results

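The gap junction genes of the newborn mouse bladder described here are Gja1, Gja4, Gja5, Gjc1 and Gjb2, which encode connexins, and Panx1, which encodes the channel protein pannexin 1. They were chosen by symbol: a probe set, the group of short probes that measures a transcript on these arrays, belonged to the set where its only gene symbol was one of these 6. That gave 12 probe sets of the 45037 that are not controls, namely 6 for Gja1, 2 for Gjc1 and 1 each for the others. Of these 12, 11 passed the filter on dim probe sets and were tested among 22518, and they covered 5 of the 6 genes. Gja5 did not pass it.

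RNA of the whole bladder, taken from FVB/N newborns on postnatal day 1, was profiled on 12 one-colour Affymetrix arrays, and the study asked what transgene expression does to expression in the bladder. The groups were SMGA/EGFP transgenic mice (3 arrays), with the Actg2 (smooth muscle gamma actin) promoter and the green fluorescent protein EGFP, SMAA/EYFP transgenic mice (3 arrays), with the Acta2 (smooth muscle alpha actin) promoter and the yellow fluorescent protein EYFP, and wild-type mice (6 arrays). All were labelled male, no RNA was pooled, and each RNA was amplified in 1 round. The transgenic pups had FVB/N mothers and fathers of the named transgenic line, and since founder and litter are not given in the sources used here, the transgene cannot be told apart from litter or sire. The p-values measure the spread between these samples.

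Connexins assemble into hemichannels in the cell membrane, and hemichannels of neighbouring cells dock to form gap junctions, through which ions and small molecules pass. In the bladder wall they couple smooth muscle cells and interstitial cells, in vessels they couple endothelial and mural cells, and in epithelia they couple neighbouring epithelial cells. Pannexin 1 mostly forms single-membrane channels that release ATP, a signal sensed by purinergic receptors in the bladder.

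The promoters of 3 genes whose levels are followed below are shown for sequence context, as they stand for the muscle, the vessel and the epithelial connexins of the set. Each is the 250 bases before the annotated start of the gene in RefSeq (assembly GRCm38.p6), read 5′ to 3′ on the strand of the gene. The stretches are chr10:56377050-56377299 on the + strand for Gja1, chr4:127314040-127314289 on the - strand for Gja4 and chr14:57104703-57104952 on the - strand for Gjb2. Capitals mark matches on either strand to 4 motifs. A GC box was searched as GGGCGG, and an AP-1 site as TGAGTCA. The core promoter box near many start sites was searched as TATAAA, and a variant of that box was searched as TTAAAA.
Gja1: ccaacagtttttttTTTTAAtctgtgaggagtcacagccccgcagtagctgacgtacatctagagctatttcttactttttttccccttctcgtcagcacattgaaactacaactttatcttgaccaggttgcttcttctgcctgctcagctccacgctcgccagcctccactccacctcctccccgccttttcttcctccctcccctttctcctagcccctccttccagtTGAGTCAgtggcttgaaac
Gja4: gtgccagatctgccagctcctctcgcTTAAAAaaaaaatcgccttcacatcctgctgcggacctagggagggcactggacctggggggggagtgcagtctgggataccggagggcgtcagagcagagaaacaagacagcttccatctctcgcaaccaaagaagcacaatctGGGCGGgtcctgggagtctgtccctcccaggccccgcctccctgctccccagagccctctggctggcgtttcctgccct
Gjb2: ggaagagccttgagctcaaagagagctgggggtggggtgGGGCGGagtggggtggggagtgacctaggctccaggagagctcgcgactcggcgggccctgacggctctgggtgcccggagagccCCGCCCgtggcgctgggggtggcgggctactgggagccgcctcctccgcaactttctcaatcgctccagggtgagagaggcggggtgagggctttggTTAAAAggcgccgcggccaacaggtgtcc

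The Gja1 promoter held TGAGTCA from 19 bases before the start, and a match to TTAAAA on the opposite strand from 236 bases before it. The Gja4 promoter held TTAAAA from 224 bases and GGGCGG from 79 bases before the start. The Gjb2 promoter held TTAAAA from 29 bases before the start, with GGGCGG from 211 bases and, on the opposite strand, from 126 bases before it. Its GC content was 69.2%, against 61.2% for Gja4 and 50% for Gja1. Over 32851 promoters of this length, GGGCGG was in 32.7%, TTAAAA in 17.7%, TATAAA in 12.4% and TGAGTCA in 4.46%. No motif overlapped another, none of the 3 sequences held TATAAA, and a match is a run of letters and not a known binding site. Sequences were found for Gja5 and Panx1 as well, so 5 of the 6 genes matched.

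The arrays carried strong signals of the tissue they were labelled with. Over the 12 arrays, the smooth muscle genes Acta2, Actg2 and Myh11 lay between 49633 and 71735 intensity units, the uroplakin Upk3a, a protein of the urothelial surface, between 27581 and 43169, the endothelial cadherin Cdh5 between 1548 and 2819, and the collagen gene Col1a1 between 23401 and 32193. Median intensity per array ran from 229.4 to 305.9, and 8.35% to 10.6% of the values on an array lay below the pseudocount of 16 that was added before logarithms were taken. Wild type 4 went against its label as male. It had 29604 units of Xist, the noncoding RNA of X inactivation, against 80.1 to 250.4 on the other 11 arrays, and 26.7 units of the Y-linked gene Eif2s3y, against 3284 to 5096. Database record numbers are consecutive over the 12 arrays and were split here into 2 runs. The first 6 hold SMGA/EGFP and wild type 1 to 3, and the last 6 hold SMAA/EYFP and wild type 4 to 6. The labels name no such runs and do not say what they could stand for. The set of 7 mesothelial markers had 4 members that fell in SMGA/EGFP against wild type, with a median log2 difference of -2.07 over the 7, and was the only one of the 12 cell type lists with a member past the threshold in any comparison. The mean log2 deviation of these markers also differed between the runs within wild type. It ran from -0.18 to 0.02 on wild type 1 to 3 and from 0.47 to 0.80 on wild type 4 to 6, against -1.52 to -1.25 in SMGA/EGFP.

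None of the tested gap junction probe sets differed between the groups at an adjusted p of 0.05 in limma, the linear model fitted over all 22518 probe sets. The count was 0 of 11 for SMGA/EGFP against wild type, where 0.0622% of all tested probe sets passed, and 0 of 11 for SMAA/EYFP against wild type, where 0% passed. It was also 0 of 11 for SMGA/EGFP against SMAA/EYFP, where 0.0799% passed, and for both transgenic groups together against wild type, where 0.00444% passed. With so few calls anywhere on the array, a count of 0 among 11 is near the background. At an unadjusted p under 0.05 in limma, 0, 1, 0 and 1 of the 11 passed in those 4 comparisons in turn, against 6.92%, 4.81%, 9.31% and 4.18% of all tested probe sets, and the 1 was the brighter Gjc1 probe set both times. In bulk tissue, fewer cells of a type and less RNA per cell cannot be told apart.

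The differences were small on the log2 scale and scattered to both sides of 0. In SMGA/EGFP against wild type, 4 probe sets were higher and 7 lower, with a median of -0.045 against -0.012 over all tested probe sets. In SMAA/EYFP against wild type, 6 were higher and 5 lower, with a median of 0.05 against 0.00. In SMGA/EGFP against SMAA/EYFP, 3 were higher and 8 lower, with a median of -0.09 against -0.02. The single values ran from -0.425 to 0.15, from -0.42 to 0.27 and from -0.44 to 0.30 in these comparisons. The median standard error of a member was 0.21 for a transgenic group against wild type, against 0.17 over all tested probe sets. Both comparisons with wild type use the same 6 wild-type arrays. Without wild type 4, the differences from wild type of SMGA/EGFP and SMAA/EYFP in turn were 0.16 and 0.14 for Gja1, -0.37 and -0.23 for Gja4, -0.16 and -0.46 for Gjc1, 0.11 and 0.23 for Gjb2, and -0.03 and 0.185 for Panx1, each by its brightest probe set.

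**Figure D1:**
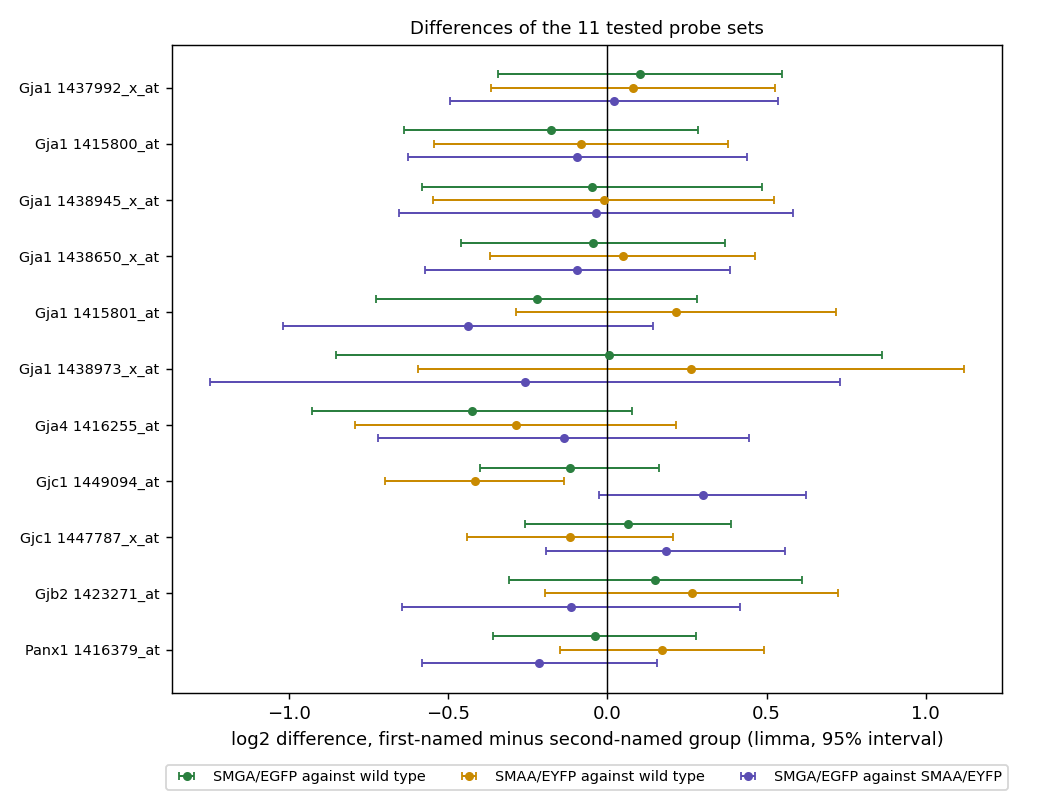
Log2 difference (x axis) of each of the 11 tested probe sets (y axis) in the 3 pairwise comparisons, first-named minus second-named group, with dots for limma estimates and bars for their 95% intervals. Apart from Gjc1 1449094_at in SMAA/EYFP against wild type, at -0.42 with an interval of -0.70 to -0.14 before adjustment for multiple testing, every interval spans 0.

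Gja1, the most widely expressed connexin and one that couples muscle and interstitial cells, was measured by 6 probe sets. By its brightest, 1437992_x_at, it had 10249.6, 5611 and 10949.7 intensity units on SMGA/EGFP arrays 1 to 3, 6733, 10719 and 8636 units on SMAA/EYFP arrays 1 to 3, and 9628, 7329, 7078, 9694, 7483 and 7306 units on wild-type arrays 1 to 6. The lowest and the highest of the 12 values were both on SMGA/EGFP arrays, and the 3 groups overlapped. On the log2 scale the means were 13.08 ± 0.55 in SMGA/EGFP (SD, n = 3), 13.06 ± 0.34 in SMAA/EYFP (SD, n = 3) and 12.98 ± 0.22 in wild type (SD, n = 6), and no neighbours in that order differed beyond their spread. In limma, SMGA/EGFP lay 0.10 ± 0.21 (SE) above wild type, with a 95% interval of -0.34 to 0.55 and an adjusted p of 0.929. SMAA/EYFP lay 0.08 ± 0.21 above wild type (-0.36 to 0.53, limma adjusted p = 0.995). The difference of 0.02 ± 0.24 between the transgenic groups had an interval of -0.49 to 0.535. SMGA/EGFP 2 decides much of these values: without it, the difference of SMGA/EGFP from wild type was 0.42.

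None of the other Gja1 probe sets separated the groups. Probe set 1415800_at had 4603, 2574 and 4410.3 units in SMGA/EGFP, 3161, 5619 and 3642 units in SMAA/EYFP, and 5754, 3873, 3627, 3897, 4476 and 4035 units in wild type. SMGA/EGFP 2 was again the lowest array and SMGA/EGFP lay at -0.18 ± 0.215 (SE) relative to wild type by this probe set (limma adjusted p = 0.862), the opposite direction to the brightest one. Probe set 1438945_x_at ran from 1762 to 3577 units in SMGA/EGFP, from 1804 to 3866 in SMAA/EYFP and from 2253 to 3886 in wild type, and 1438650_x_at ran from 1191 to 1483, from 1026 to 2021 and from 1012 to 1867 units in the same groups. Probe set 1415801_at had 338.6, 301.1 and 425.6 units in SMGA/EGFP, 367.7, 588.0 and 381.3 units in SMAA/EYFP, and 289.3 to 518.0 units in wild type, with a limma difference of -0.44 ± 0.27 for SMGA/EGFP against SMAA/EYFP (adjusted p = 0.632). The groups overlapped in all 6. The 4 brightest probe sets followed each other over the 12 arrays, with Pearson's r of 0.686 to 0.90. Probe set 1415801_at correlated with those 4 at 0.312 to 0.397 and 1438973_x_at at -0.08 to 0.05, although all 6 are annotated to Gja1. The suffix _x_at marks a probe set with probes that can bind other transcripts. The brightest probe set, which stands for Gja1 in the summaries here, carries it, while 1415800_at and 1415801_at do not. By 1415800_at, SMAA/EYFP too lay on the other side of wild type, at -0.08 against 0.08 by the brightest. Whether any of the 6 measures Gja1 alone was not tested. Probe set 1438973_x_at was low on wild type 2, at 128.9 units, and on SMGA/EGFP 3, at 190.1 units, against 343.3 to 568.8 units on the other 10 arrays.

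**Figure D2:**
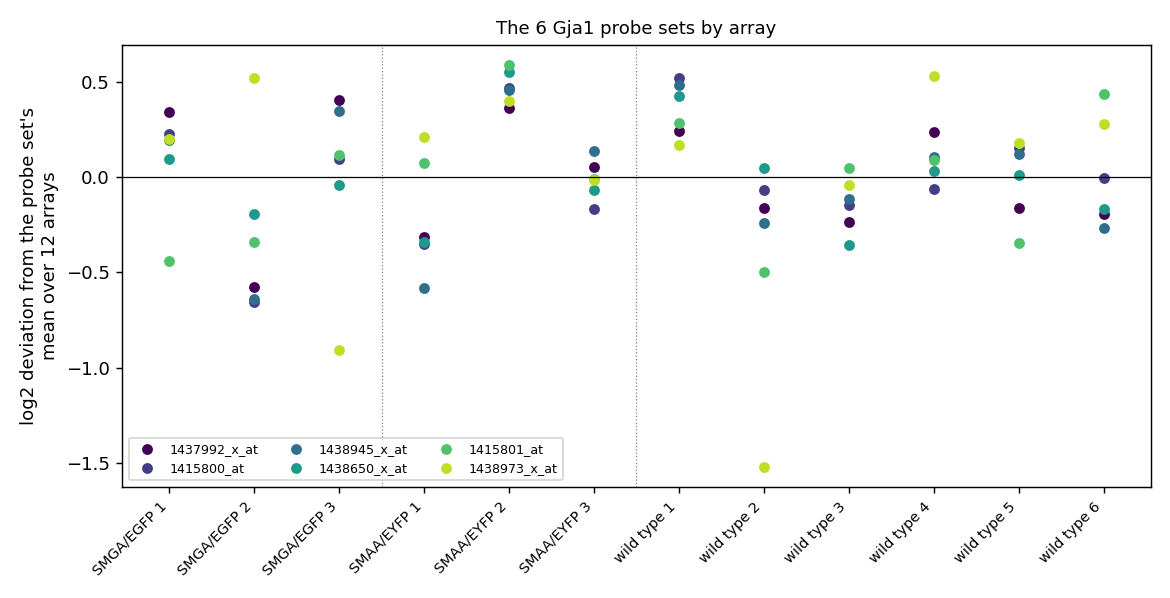
Log2 deviation of the 6 Gja1 probe sets from their own means over the 12 arrays (y axis), by array (x axis, dotted lines between the groups), with 1 dot per probe set. The 4 darkest dots, the brightest probe sets, move together and are low on SMGA/EGFP 2, while 1438973_x_at is low on wild type 2 (128.9 units) and SMGA/EGFP 3 (190.1 units).

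Gjc1, a connexin of smooth muscle and vascular mural cells, gave the smallest p of the set, without passing the threshold. By probe set 1449094_at it had 6239.6, 6062 and 7178 units in SMGA/EGFP, 5973, 5326 and 4732 units in SMAA/EYFP, and 7833, 6446, 6541, 6008, 9391 and 6734 units in wild type. All 3 SMAA/EYFP arrays lay below all 6 wild-type arrays and below all 3 SMGA/EGFP arrays, while SMGA/EGFP and wild type overlapped. Of all 22518 tested probe sets, 1.27% lay wholly lower in SMAA/EYFP than in wild type, where this was 1 of 11 members, and 1.61% lay wholly lower in SMGA/EGFP than in wild type, where it was 0 of 11. Wholly higher in SMGA/EGFP than in SMAA/EYFP were 6.48% of all and 1 of 11 members. Among 11 probe sets, a count of 0 or 1 is too small to be told apart from these shares. The gap was narrow, with SMAA/EYFP 1 at 5973 units and wild type 4 at 6008 units. The means were log2 12.67 ± 0.125 in SMGA/EGFP (SD, n = 3), 12.37 ± 0.16 in SMAA/EYFP (SD, n = 3) and 12.79 ± 0.23 in wild type (SD, n = 6). SMAA/EYFP lay at -0.42 ± 0.13 (SE) relative to wild type in limma, with an unadjusted p of 0.00662 and an adjusted p of 0.991, in a comparison where 0% of probe sets passed. That is 0.749 times the wild-type level, with an interval of 0.616 to 0.91 times.

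The Gjc1 difference kept its direction and size across the arrays it was set against. It was -0.46 without wild type 4, -0.45 against wild type 4 to 6 of the same run, and between -0.49 and -0.335 with any 1 array left out. SMGA/EGFP against wild type gave -0.12 ± 0.13 (limma adjusted p = 0.851) and SMGA/EGFP against SMAA/EYFP 0.30 ± 0.15 (limma adjusted p = 0.565), where 0.0799% of probe sets passed. The second Gjc1 probe set, 1447787_x_at, did not separate the groups. It had 2409.9, 1718 and 2429 units in SMGA/EGFP, 1912, 1834 and 1939 units in SMAA/EYFP, and 2393, 1866, 1870.3, 1658, 2268 and 2361 units in wild type. The SMAA/EYFP arrays lay inside the wild-type range, and the limma difference was -0.12 ± 0.15, with an interval of -0.44 to 0.21 and an adjusted p of 0.994. The 2 probe sets correlated at r = 0.584 over the 12 arrays.

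**Figure D3:**
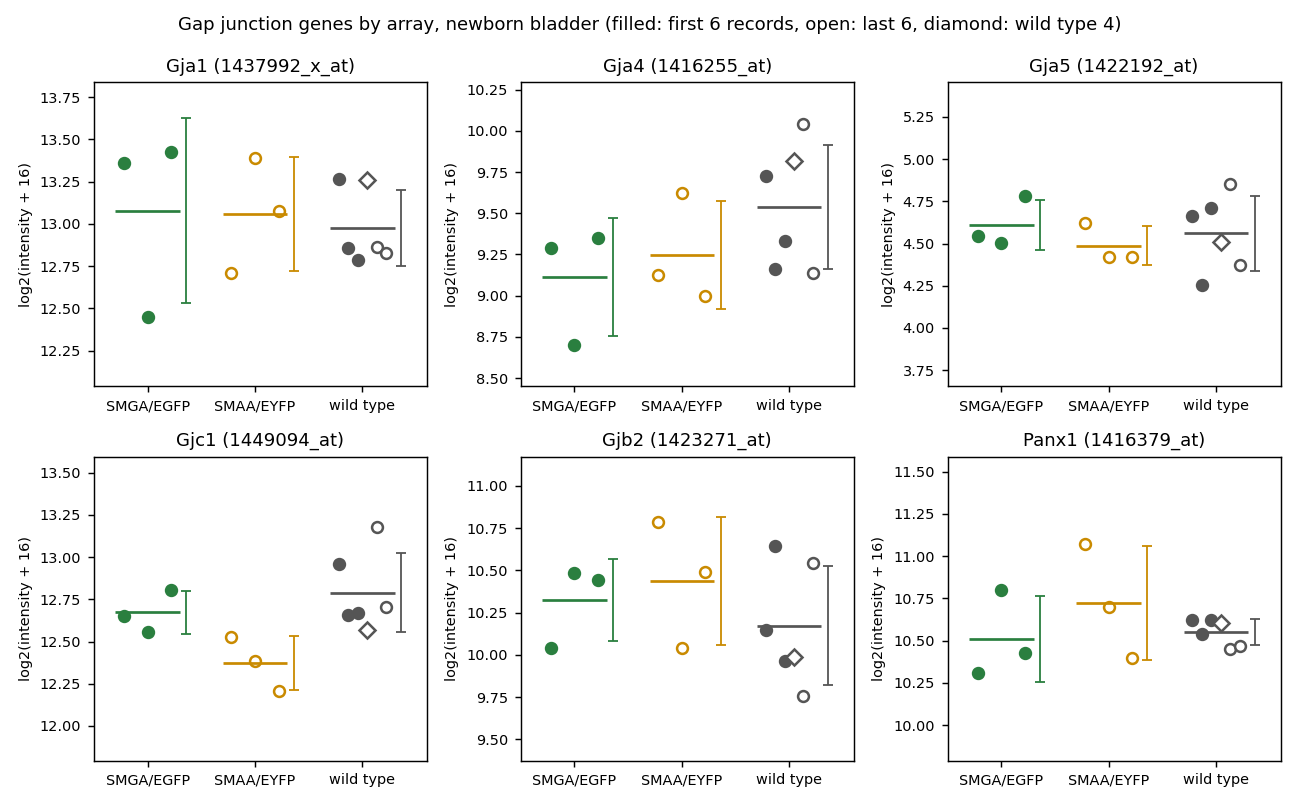
Level of each gene by its brightest probe set (y axis, log2 of intensity plus 16 after quantile normalization) on each array, by group (x axis), with group means as lines and SD as bars beside them (n = 3, 3 and 6). Filled points are the first 6 record numbers and open points the last 6, the diamond is wild type 4, and Gjc1 in SMAA/EYFP is the 1 case in which the points of a transgenic group lie wholly below those of wild type (as for 1.27% of all tested probe sets), while all Gja5 values come from intensities under the pseudocount.

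Gja4 and Gja5 are connexins of vessels, both made by arterial endothelium. Gja4 had 677.1, 395.6 and 638.8 units in SMGA/EGFP, 491.9, 776.7 and 489.0 units in SMAA/EYFP, and 869.9, 593.6, 596.3, 902.9, 1027 and 503.9 units in wild type. The 3 highest values were on wild-type arrays and the lowest was on SMGA/EGFP 2, but the groups overlapped. The means were log2 9.11 ± 0.36 in SMGA/EGFP (SD, n = 3), 9.25 ± 0.33 in SMAA/EYFP (SD, n = 3) and 9.54 ± 0.38 in wild type (SD, n = 6). In limma SMGA/EGFP lay at -0.425 ± 0.235 (SE) relative to wild type, with an interval of -0.93 to 0.08 and an adjusted p of 0.744, and the value ran from -0.54 to -0.22 with 1 array left out. SMAA/EYFP lay at -0.29 ± 0.235 (interval -0.79 to 0.22, limma adjusted p = 0.991), running from -0.47 to -0.16 with 1 array left out. Gja5, by contrast, had 8.38, 7.02 and 9.88 units in SMGA/EGFP, 9.18, 4.55 and 5.81 units in SMAA/EYFP, and 8.42, 3.04, 9.40, 7.30, 12.9 and 5.13 units in wild type. Every value was under the pseudocount, so this probe set gave no order of the groups, which does not show that the gene was silent.

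Gjb2 is a connexin of epithelia. It had 1093, 1415 and 1399.7 units in SMGA/EGFP, 1703, 1044 and 1424 units in SMAA/EYFP, and 1167, 1606, 934.2, 1009.99, 830.4 and 1424 units in wild type. Each group held both high and low arrays, and the groups overlapped. The means were log2 10.32 ± 0.24 in SMGA/EGFP (SD, n = 3), 10.44 ± 0.38 in SMAA/EYFP (SD, n = 3) and 10.17 ± 0.35 in wild type (SD, n = 6). The limma difference was 0.15 ± 0.21 (SE) for SMGA/EGFP against wild type, with an interval of -0.31 to 0.61 and an adjusted p of 0.885. That value ran from 0.07 to 0.29 with 1 array left out and was 0.07 with the record run as a block. It was 0.265 ± 0.21 for SMAA/EYFP against wild type (-0.195 to 0.725, limma adjusted p = 0.991), and ran from 0.09 to 0.465 with 1 array left out.

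Panx1 varied little among wild-type bladders and more among transgenic ones. It had 1287, 1752 and 1379.6 units in SMGA/EGFP, 2094, 1671 and 1338 units in SMAA/EYFP, and 1602, 1497, 1517, 1576, 1367 and 1344 units in wild type. The transgenic arrays spread on both sides of the wild-type ones. The means were log2 10.51 ± 0.26 in SMGA/EGFP (SD, n = 3), 10.72 ± 0.34 in SMAA/EYFP (SD, n = 3) and 10.55 ± 0.08 in wild type (SD, n = 6), and the difference in spread was not tested. The limma differences from wild type were -0.04 ± 0.15 for SMGA/EGFP (interval -0.36 to 0.28, adjusted p = 0.963) and 0.17 ± 0.15 for SMAA/EYFP (-0.15 to 0.49, adjusted p = 0.993).

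Markers of the cell types that make these channels were compared in the same way, and none of the urothelial, endothelial, arterial or smooth muscle genes passed the threshold. Of 20 urothelial genes tested, 18 had a higher mean in SMGA/EGFP (median log2 difference from wild type 0.16) and 19 in SMAA/EYFP (median 0.26). Of all tested probe sets, 47.1% were higher in SMGA/EGFP and 50.8% in SMAA/EYFP. Upk2, a uroplakin, had a difference of 0.45 ± 0.14 (SE) in SMAA/EYFP that did not pass (limma adjusted p = 0.991). Of 16 endothelial genes, 15 were lower in SMGA/EGFP (median -0.21) and 16 lower in SMAA/EYFP (median -0.24), among them Tek, the angiopoietin receptor, at -0.34 ± 0.11 in SMGA/EGFP (limma adjusted p = 0.664). The narrower list of arterial endothelium, the cells named above for Gja4, did not show that lean in SMGA/EGFP: of 10 genes, 5 were higher and 5 lower (median 0.035), while in SMAA/EYFP 3 were higher and 7 lower (median -0.15). Of 16 smooth muscle genes, 12 were lower in SMGA/EGFP and 11 in SMAA/EYFP, with medians of -0.02 in both, against -0.01 and 0.00 over all tested probe sets. Among 7 pericyte genes tested, 3 were lower in SMGA/EGFP (median 0.025) and 4 in SMAA/EYFP (median -0.11). For interstitial cells, 3 of 4 genes were lower in each group, with medians of -0.02 and -0.26. Among 10 fibroblast genes, 7 were lower in SMGA/EGFP (median -0.05) and 9 in SMAA/EYFP (median -0.13). None of the genes of these lists passed the threshold either. Gjb2 had the sign of the urothelial medians in both groups, and Gja4 that of the endothelial medians in both but that of the arterial median in SMAA/EYFP only. Both groups were set against the same 6 wild-type arrays, so a sign shared by both is not 2 separate observations. The part of these cell types in the members' values was not tested.

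The marker lists were also set against the members array by array, with a list score that is the mean log2 deviation of its genes. Endothelium scores ran from -0.44 to 0.12 in SMGA/EGFP, from -0.28 to 0.15 in SMAA/EYFP and from -0.02 to 0.28 in wild type. Urothelium scores ran from -0.25 to 0.19 in SMGA/EGFP, from 0.07 to 0.28 in SMAA/EYFP and from -0.45 to 0.22 in wild type. Over all 12 arrays, Gjb2 correlated with the urothelium score at Pearson's r = 0.667 (permutation p = 0.0198, Benjamini-Hochberg adjusted p = 0.119 over 6 relations) and Spearman's rho = 0.615 (permutation p = 0.0374). Without wild type 3 and wild type 5, the arrays farthest from the median score, r was 0.396 (permutation p = 0.256), so the size of the relation over all arrays rests in part on those. Within the first 6 record numbers r was 0.972 (exact permutation p = 0.00278, adjusted p = 0.0167) and within the last 6 it was 0.491 (exact permutation p = 0.354). Gja4 correlated with the endothelium score at r = 0.569 (permutation p = 0.0547, adjusted p = 0.12) and rho = 0.434 (permutation p = 0.163). Leaving out SMAA/EYFP 2 and SMGA/EGFP 2 gave 0.597 (permutation p = 0.064), and the values within the runs were 0.858 (exact permutation p = 0.0347, adjusted p = 0.104) and 0.329 (exact permutation p = 0.449).

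The muscle connexins showed no steady relation to the smooth muscle score. For Gjc1, r was 0.262 (permutation p = 0.413) and rho 0.175 (permutation p = 0.588) over 12 arrays, and -0.18 without wild type 5 and wild type 6 (permutation p = 0.619). It was -0.41 in the first 6 record numbers (exact permutation p = 0.471) and 0.871 in the last 6 (exact permutation p = 0.00694, adjusted p = 0.0417). For Gja1, r was -0.25 (permutation p = 0.424) and rho -0.20 (permutation p = 0.544), with -0.11 without the same arrays (permutation p = 0.764), 0.02 in the first 6 (exact permutation p = 0.968) and -0.75 in the last 6 (exact permutation p = 0.0972). Panx1 and the urothelium score gave r = 0.245 (permutation p = 0.452) and rho = 0.02 (permutation p = 0.956), with 0.206 without wild type 3 and wild type 5 (permutation p = 0.571), 0.285 in the first 6 (exact permutation p = 0.553) and 0.229 in the last 6 (exact permutation p = 0.604). The Gja5 relation, the last of the 6, is not given because every Gja5 value lay under the pseudocount.

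**Figure D4:**
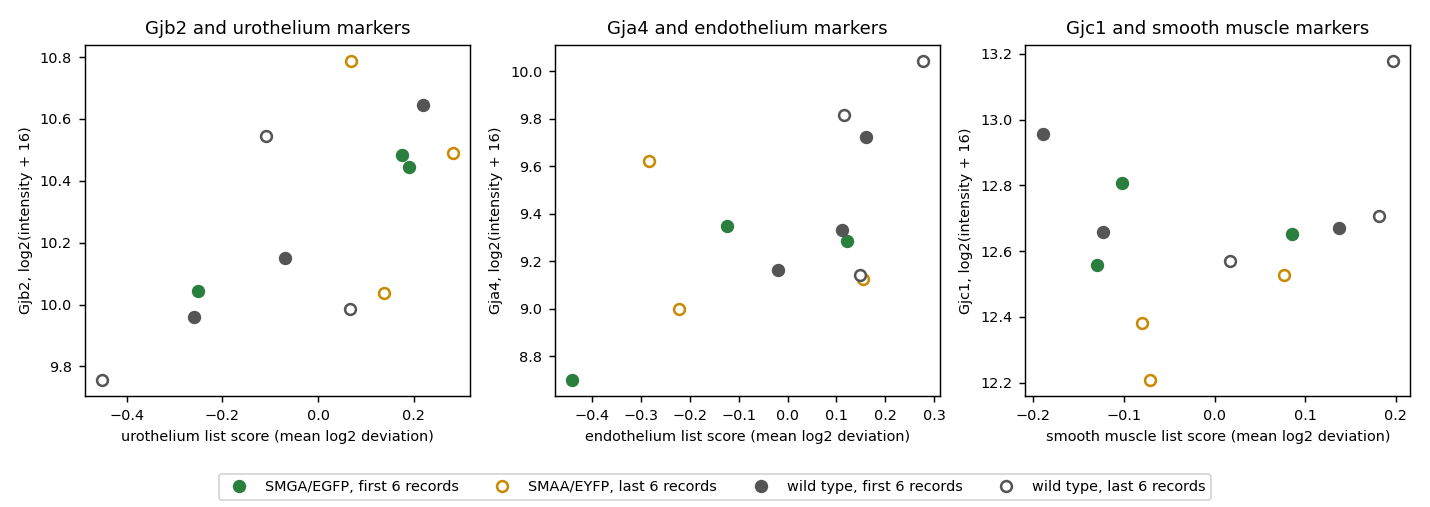
Level of Gjb2, Gja4 and Gjc1 (y axes, log2 of intensity plus 16) against the score of a marker list (x axes, mean log2 deviation), with 1 point per array, coloured by group, filled for the first 6 record numbers and open for the last 6. Gjb2 climbs with the urothelium score, most evenly among the filled points (r = 0.972, against 0.491 among the open ones). Gja4 climbs with the endothelium score, also more evenly among the filled points (0.858 against 0.329). Over all 12 arrays neither relation passed the threshold (permutation test, adjusted p = 0.119 for Gjb2 and 0.12 for Gja4). Gjc1 slopes in opposite directions among filled and open points.

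Of 17 other connexin and pannexin genes, 11 had a probe set of their own and only Gjb6 and Gjb5 were bright enough to be tested. Neither passed in any comparison. Gjb6, an epithelial connexin, had 7439, 8936 and 9897 units in SMGA/EGFP, 8452, 8698 and 8613 units in SMAA/EYFP, and 7087, 6994, 6766, 8085, 6233 and 5882 units in wild type. All 3 SMAA/EYFP arrays lay above every wild-type array, and SMGA/EGFP 2 and SMGA/EGFP 3 did too, with SMGA/EGFP 1 below wild type 4. Of all tested probe sets, 1.72% lay wholly higher in SMAA/EYFP than in wild type. The limma difference from wild type was 0.36 ± 0.11 (SE) in SMGA/EGFP (adjusted p = 0.653) and 0.33 ± 0.11 in SMAA/EYFP (adjusted p = 0.991, unadjusted p = 0.00949). Against wild-type arrays of the same run, the differences were 0.32 and 0.37, and without wild type 4 they were 0.415 and 0.38, settings chosen after the values were seen.

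Gjb5, another epithelial connexin, followed the record numbers. It had 405.4, 293.4 and 385.1 units in SMGA/EGFP, 836.4, 747.5 and 655.0 units in SMAA/EYFP, and 313.3, 576.5, 414.2, 702.4, 949.2 and 926.7 units in wild type. The last 6 records, wild type included, lay between 655.0 and 949.2 units, all above the first 6 at 293.4 to 576.5 units, and wild type 4 to 6 lay 1.05 log2 units above wild type 1 to 3. Of the 13 tested connexin and pannexin probe sets it was the only one that lay wholly higher in the last 6 records, against 0.457% of all tested probe sets. In limma SMGA/EGFP lay at -0.79 ± 0.315 relative to wild type (adjusted p = 0.712) and at -1.13 ± 0.36 relative to SMAA/EYFP (adjusted p = 0.413). With the run as a block, these values were -0.27 and -0.08.

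**Figure D5:**
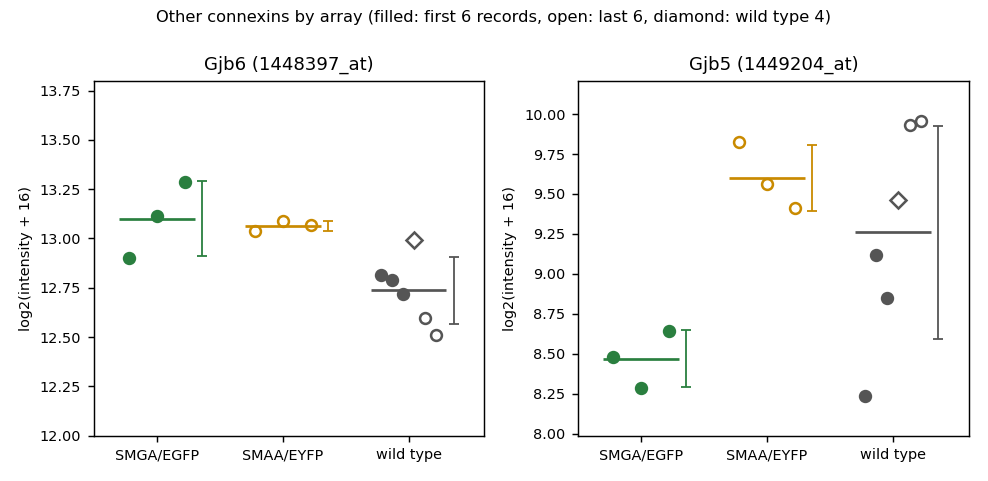
Level of Gjb6 and Gjb5 (y axes, log2 of intensity plus 16) on each array by group (x axes), with means as lines and SD as bars (n = 3, 3 and 6), filled for the first 6 record numbers, open for the last 6, and a diamond for wild type 4. For Gjb5 every open point lies above every filled one (655.0 units and up against 576.5 and below), wild type included. For Gjb6 the SMAA/EYFP points lie above all wild-type points, as for 1.72% of all tested probe sets, while SMGA/EGFP overlaps wild type. Neither Gjb6 difference passed the threshold (limma adjusted p = 0.991 for SMAA/EYFP and 0.653 for SMGA/EGFP).

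Genes that work with connexins did not pass the threshold either. Of 25 partners, such as junction scaffolds, adherens junction proteins and kinases that act on connexins, 21 were tested, with 12 above and 9 below wild type in SMGA/EGFP and 10 above and 11 below it in SMAA/EYFP. Dbn1, the actin-binding protein drebrin, which binds the connexin encoded by Gja1, lay at -0.39 ± 0.15 (SE) in SMAA/EYFP relative to wild type (limma adjusted p = 0.991) and at 0.53 ± 0.175 in SMGA/EGFP relative to SMAA/EYFP (limma adjusted p = 0.419). Of 17 regulators of connexin genes, 15 were tested, with 5 higher and 10 lower in SMGA/EGFP and 6 higher and 9 lower in SMAA/EYFP. Fos, a subunit of the factor that binds AP-1 sites, lay at 0.66 ± 0.32 in SMAA/EYFP (limma adjusted p = 0.991). In SMGA/EGFP the regulator of smallest p was Nr2f2, at 0.37 ± 0.17 relative to wild type (limma adjusted p = 0.718). Klf2, a flow-responsive endothelial factor, went the other way there, at -0.51 ± 0.27 (limma adjusted p = 0.744). Relative to SMAA/EYFP, Klf2 in SMGA/EGFP lay at -0.81 ± 0.32 (limma adjusted p = 0.49). Of 21 genes of purinergic signalling and ATP release, 10 were tested, with 4 higher and 6 lower in SMGA/EGFP and 6 higher and 4 lower in SMAA/EYFP. P2rx1, the ATP-gated channel of bladder muscle, lay at -0.33 ± 0.20 in SMGA/EGFP (limma adjusted p = 0.758).

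Among the members, the levels of Gja4 and Gjb2 ran against each other over the 12 arrays, with Pearson's r of -0.76, and of -0.49 in the first 6 and -0.94 in the last 6 record numbers. Gja4 ran with Gjc1 at 0.568 and with Gja1 at 0.503, and Gja1 against Panx1 at -0.48. The marker scores of cell types varied between the arrays, as given above for endothelium and urothelium, and these correlations are descriptions without a test. Among 11725 other genes, the most alike by Pearson's r over 12 arrays were P4hb (0.936), Hltf (0.881) and Srek1 (0.877) for Gja1, and Tsen34 (0.88), Tcaf1 (0.877) and Fgfr1 (0.862) for Gjc1. For Gja4 they were Zfpm2 (0.921), Trim12c (0.919) and Bmx (0.913), for Gjb2 Pdlim1 (0.962), Mboat1 (0.95) and Ppl (0.949), and for Panx1 Btf3 (0.92), Hrk (0.882) and D2hgdh (0.861). The highest of so many correlations over 12 arrays is large by selection.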

How the data were processed

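Per the labels' protocols, RNA from whole bladders was purified on RNeasy columns, amplified and labelled with biotin. Deposited was 1 intensity per probe set on a linear scale, which the authors made using GCOS, per the submitters' processing notes, with version, algorithm and filters not given in the sources used here. The mean between the 2nd and 98th percentile was 1500.01 on all 12 arrays, so the authors had scaled each array by 1 factor.

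Here, 64 control probe sets were left out of 45101, log2(intensity + 16) was quantile-normalized, and the 22518 probe sets with a mean above the median of means (log2 8.02) were tested with limma 3.58.1 in R 4.3.3 (intensity trend, all 12 arrays in 1 fit, two-sided, Benjamini-Hochberg, threshold 0.05). The fit was tested on simulated data with added changes larger than any member difference, so that test does not cover changes of the members' size. Differences carry moderated standard errors, and the number of arrays limits the precision. Symbols came from GEO's platform annotation: 34945 probe sets had 1 symbol, 932 several and 9160 were not listed, and an update through RefSeq (GRCm38.p6) changed 0. Relations used 100000 permutations over 12 arrays and all 720 pairings over 6.

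A gene of a list was represented by its brightest probe set. Named were all member probe sets, the tested other connexins, up to 4 genes of smallest p per list and comparison, of which those nearest the members are given, and the 3 genes most alike each member. Members, lists and alternatives were chosen with earlier results of these data known. Alternatives were other normalizations, pseudocounts, filters and empirical Bayes options, array weights, the groups compared alone, a block for the run of record numbers, fits within a run, and each array left out.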

Additional observations from a re-analysis of the deposited data

Results flagged for a closer look

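In wild type, the one group with enough arrays for such a check, 1 member value stood far from the rest of its group. Gja1 by probe set 1438973_x_at was log2 7.11 on wild type 2 (128.9 intensity units), against 8.59 on the nearest other wild-type array. None of the other member probe sets had such a value. Chance alone marks about 1 in 20 groups in this way.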

How the results depend on the processing

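The count of member probe sets past the threshold was 0 in every comparison and setting. The share of all tested probe sets past it is given here for the main fit only, so these counts have no background beside them. Over 20 member comparisons, each by the brightest probe set of a gene, 477 differences were recomputed: 458 kept their direction, 19 changed it, and 0 passed the threshold. Outside the settings that leave out an array, the changes of direction were Gja1 in SMGA/EGFP against SMAA/EYFP with arrays centred on their median (-0.12), Gja4 in that comparison with array weights (0.043) and with the run as a block (0.125), and Panx1 in both transgenic groups against wild type with array weights (-0.014). With 1 array left out, Gja1 ran from -0.071 to 0.419 in SMGA/EGFP against wild type, from -0.083 to 0.254 in SMAA/EYFP against wild type and from -0.15 to 0.34 in SMGA/EGFP against SMAA/EYFP. Gja4 ran from -0.26 to 0.07 and Gjb2 from -0.315 to 0.06 in SMGA/EGFP against SMAA/EYFP. Panx1 ran from -0.185 to 0.061 in SMGA/EGFP against wild type, from 0.00 to 0.33 in SMAA/EYFP against wild type and from -0.02 to 0.15 in both groups against wild type. The limma adjusted p of Gjc1 in SMAA/EYFP against wild type ran from 0.232 (array weights) to 1.00. With settings chosen after seeing the data, Gjb5 in SMAA/EYFP against wild type was -0.18 with the run as a block and -0.19 within the run, against 0.34, and Gjb6 in SMGA/EGFP against SMAA/EYFP was -0.039 with the block, against 0.036. With the block, 14 of 20 urothelial genes were higher in SMGA/EGFP, against 18. The Gjb2 relation to the urothelium score was 0.75 (permutation p = 0.00513, adjusted p = 0.0308) on values as deposited, 0.786 (permutation p = 0.00184, adjusted p = 0.011) on median-centred arrays and 0.972 in the first 6 records. The Gjc1 relation to smooth muscle was -0.18 without 2 arrays, -0.41 in the first 6 and 0.871 in the last 6 records, and that of Gja1 was 0.017 in the first 6. The cause was not tested for any of these.

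No paired analysis was possible because the labels number no replicates. SMGA/EGFP and SMAA/EYFP lie in different runs, so no fit within a run compares them. With 3 arrays in each transgenic group, intervals stayed wide, and Gja5 was too dim to compare.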
